A study of Mus musculus with 2 samples.

Results

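The angiopoietins and angiopoietin-like proteins of epididymal fat were compared between WT_A12 and KO_A12 mice on 2 Clariom S Mouse Arrays. The 8 genes of the family list were Angpt1, Angpt2, Angpt4, Angptl1, Angptl2, Angptl4, Angptl6 and Angptl7, and their members were found by the gene symbol of the platform annotation. A probe set, the group of short oligonucleotides that reports 1 transcript signal, was found for 7 of the 8 genes, among 22206 probe sets in all. For Angptl2 the annotation lists none under this symbol, and the gene is not analysed here. The family was chosen by the array signals of one of its genes, Angpt4, which had met the cutoffs for a higher signal in the KO_A12 pool. The values of Angpt4 are therefore a description and carry no test.

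Both pools came from male mice of the A/J-12SM consomic strain, which has chromosome 12 of SM/J on an A/J background. WT_A12 mice have the intact Iah1 gene, and KO_A12 mice are homozygous for a frameshift deletion in exon 1 of Iah1, made with CRISPR/Cas9 and present in all tissues. Both groups received standard chow until 6 weeks of age, then the high-fat diet for 12 weeks, and were deprived of the diet for 4 hours before tissue collection. The RNA of 3 mice was pooled per genotype and hybridized to 1 array, so that no spread between mice or arrays could be computed, no p-value is given, and genotype and pool cannot be told apart. Signals are on the log2 scale, and each difference was taken as KO_A12 minus WT_A12, so that a positive value means a higher signal in the knockout pool. Iah1 itself had a log2 signal of 9.52 in WT_A12 and 8.35 in KO_A12, a difference of -1.17. By real-time qPCR, a separate measure of mRNA, the study did not detect Iah1 in KO_A12 mice. The array difference therefore does not give the size of the loss. The 9 measured adipocyte markers had median log2 signals of 17.13 and 17.04, with Adipoq, the adiponectin gene, at 18.22 and 18.31, so that the defining genes of fat were bright on both arrays. As a measure of the lowest informative signal, the 23 background controls of the array had a median of 5.75 for WT_A12 and 5.61 for KO_A12.

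Angiopoietins are secreted ligands of the endothelial receptor kinase Tie2, encoded by Tek. In blood vessels Angpt1, made largely by cells that wrap the vessel, keeps the endothelium quiet, and Angpt2, released by the endothelium, can oppose it and loosens vessels for remodelling. Angiopoietin-like proteins resemble them in structure but do not bind Tie2. Angptl4, which adipocytes secrete in fasting, inactivates lipoprotein lipase and so limits the uptake of fat from the blood.

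Among the 7 measured members, 4 had a higher and 3 a lower signal in the KO_A12 pool, with a median difference of 0.19 on the log2 scale. Angpt4, by which the family was chosen, is among the higher ones. Without it 3 members were higher and 3 lower, with a median of 0.07, beside a median of 0.00029 over all probe sets, of which 50.0% were higher. One of the lower members, Angptl6, was too dim on both arrays for its difference to be read. Only Angpt4 exceeded both cutoffs taken from the study, a difference over 1, which is 2-fold, and a log2 signal over 7 on the higher array. Over all probe sets 0.567% were called higher and 0.757% lower by these cutoffs, and without the signal cutoff 1.46% were over 2-fold higher. No member was called lower. Angptl7, with a difference of 0.84 and a KO_A12 log2 signal of 6.94, and Angptl1, with a difference of -0.83, did not meet the cutoffs. Angpt1, Angpt2, Angptl4 and Angptl6 had differences within 0.5 of 0.

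**Figure D1:**
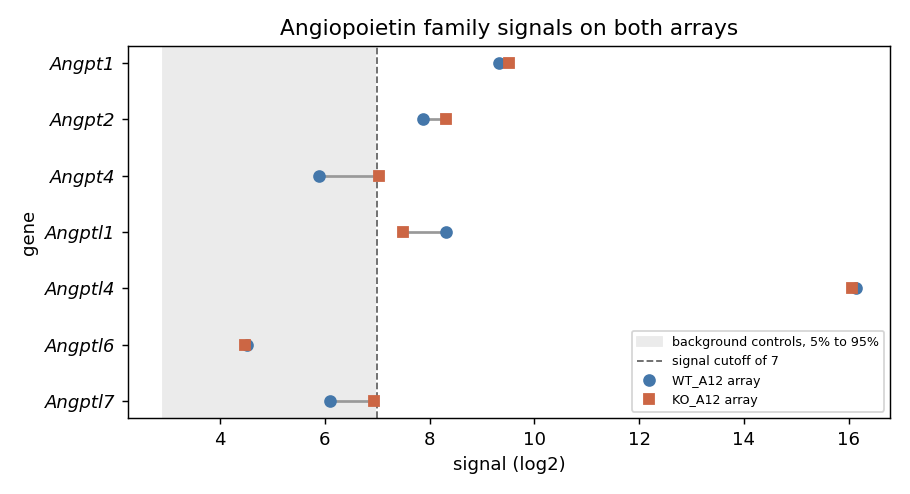
Log2 signal (x axis) of the 7 measured family genes for WT_A12 (circles) and KO_A12 (squares), 1 array of a 3-mouse pool each, with no error bars because there are no replicates; grey spans the background controls without their outermost values and the dashed line the signal cutoff of 7. The WT_A12 signal of Angpt4 (5.88) and both signals of Angptl7 (6.10 and 6.94) and of Angptl6 (4.52 and 4.47) lie in the grey range. This range joins the controls of both arrays. For the KO_A12 controls alone its upper end would be 6.83, under the KO_A12 signal of Angptl7. Both Angptl4 signals (16.14 and 16.07) lie far to the right of it.

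The promoters of the 3 members with the largest absolute differences, Angpt4, Angptl7 and Angptl1, are shown. The RefSeq sequences of GRCm38.p6 run from 250 bases before to 50 bases after the gene start, 5′ to 3′ on the strand of the gene. Capitals mark each match, on either strand, to the TATA box (TATAAA), the GC box (GGGCGG), the CCAAT box (CCAAT) or ACGTG. None of these contains another. ACGTG is a form of the core of the hypoxia response element. The other form, GCGTG, was neither searched for nor marked, and it occurs in the Angpt4 window.
Angpt4, chr2:151910957-151911256, plus strand: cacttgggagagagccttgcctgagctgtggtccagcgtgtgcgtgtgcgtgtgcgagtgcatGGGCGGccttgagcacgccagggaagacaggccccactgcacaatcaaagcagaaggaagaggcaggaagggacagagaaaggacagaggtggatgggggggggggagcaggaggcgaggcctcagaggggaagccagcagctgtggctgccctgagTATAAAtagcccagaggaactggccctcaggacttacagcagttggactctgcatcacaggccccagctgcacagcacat
Angptl7, chr4:148500413-148500712, minus strand: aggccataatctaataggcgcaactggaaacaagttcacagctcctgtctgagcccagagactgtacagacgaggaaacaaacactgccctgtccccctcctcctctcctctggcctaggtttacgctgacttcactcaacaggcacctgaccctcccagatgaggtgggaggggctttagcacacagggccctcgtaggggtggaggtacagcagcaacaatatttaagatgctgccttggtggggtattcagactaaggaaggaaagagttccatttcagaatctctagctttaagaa
Angptl1, chr1:156838773-156839072, plus strand: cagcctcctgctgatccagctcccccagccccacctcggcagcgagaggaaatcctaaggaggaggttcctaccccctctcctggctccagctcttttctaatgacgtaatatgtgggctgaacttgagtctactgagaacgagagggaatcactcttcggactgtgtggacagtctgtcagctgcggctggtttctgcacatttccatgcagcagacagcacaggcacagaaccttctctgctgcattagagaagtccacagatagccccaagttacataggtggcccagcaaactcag

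The Angpt4 promoter has 1 TATA box, which begins 30 bases before the gene start, and 1 GC box farther upstream. No match to any of these letters was found in the windows of Angptl7 and Angptl1, which says nothing of the factors that act there. Of 32851 RefSeq promoters of this length, 13.6% have the TATA box, 35.7% the GC box, 37.4% the CCAAT box and 19.6% the ACGTG form of the hypoxia core. The Angpt4 window has 7 CpG dinucleotides, that of Angptl1 6 and that of Angptl7 4, beside a median of 7 over all promoters. Of the 7 measured members, 4 matched an entry of the promoter table.

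Of the Tie2 ligands, Angpt1 had a log2 signal of 9.32 in WT_A12 and 9.51 in KO_A12. The difference of 0.19, 1.14-fold, was exceeded by 21.4% of the 500 probe sets nearest in mean signal. This share describes how far probe sets of like signal differ between these 2 arrays, and the genotype is not tested by it. Angpt2 had log2 signals of 7.88 and 8.31, a difference of 0.43 or 1.35-fold, exceeded by 9.40% of its 500 nearest probe sets. Both differences lay within the central 95% of their neighbours, which ran from -0.91 to 0.83 for Angpt2.

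Angpt4 encodes another Tie2 ligand. Its log2 signal was 5.88 in WT_A12 and 7.04 in KO_A12, a difference of 1.16 or 2.23-fold. The KO_A12 signal thus passed the cutoff of 7 narrowly, and on the WT_A12 array 11 of the 23 background controls were brighter than Angpt4. On the KO_A12 array 1 of 23 was brighter. Of its 500 nearest probe sets, 2.60% had a higher difference, and the central 95% ran from -0.96 to 1.17, so that the value of Angpt4 lay just inside it. Because the WT_A12 signal was within the range of the background controls, the size of the fold is uncertain. Angpt4 was not called with a signal over 7 required of each array, over 8 of the higher one, or at 3-fold. The study also measured Angpt4 in epididymal fat by real-time qPCR and reports that the change seen on the arrays was not reproduced.

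Angptl4 had log2 signals of 16.14 in WT_A12 and 16.07 in KO_A12, both far above all background controls. The difference was -0.07, 0.95-fold, and the central 95% of its neighbours ran from -0.51 to 0.36. The range of neighbours was narrower here than for the other members, since probe sets of high signal differed less between the arrays.

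Angptl1, an angiopoietin-like protein described as an inhibitor of vessel growth, was the member with the most negative difference. Its log2 signals were 8.31 and 7.48, a difference of -0.83, so that the WT_A12 signal was 1.77-fold that of KO_A12. No background control was brighter on either array, and 4.60% of its 500 nearest probe sets had a lower difference. The central 95% of these ran from -0.94 to 0.99, so that the value of Angptl1 lay inside it. Angptl7, known from the cornea and the outflow tissue of the eye, had log2 signals of 6.10 and 6.94, a difference of 0.84 or 1.79-fold. The size of this fold is uncertain for the same reason as that of Angpt4. On the WT_A12 array 11 of 23 background controls were brighter and on the other array 1, and 4.60% of the nearest probe sets had a higher difference. Their central 95% ran from -0.96 to 1.15, which also holds the value of Angptl7. Angptl6, a circulating protein made mainly in the liver, had log2 signals of 4.52 and 4.47, and 13 of the 23 background controls were brighter on each array, so that a difference could not be read at this signal.

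**Figure D2:**
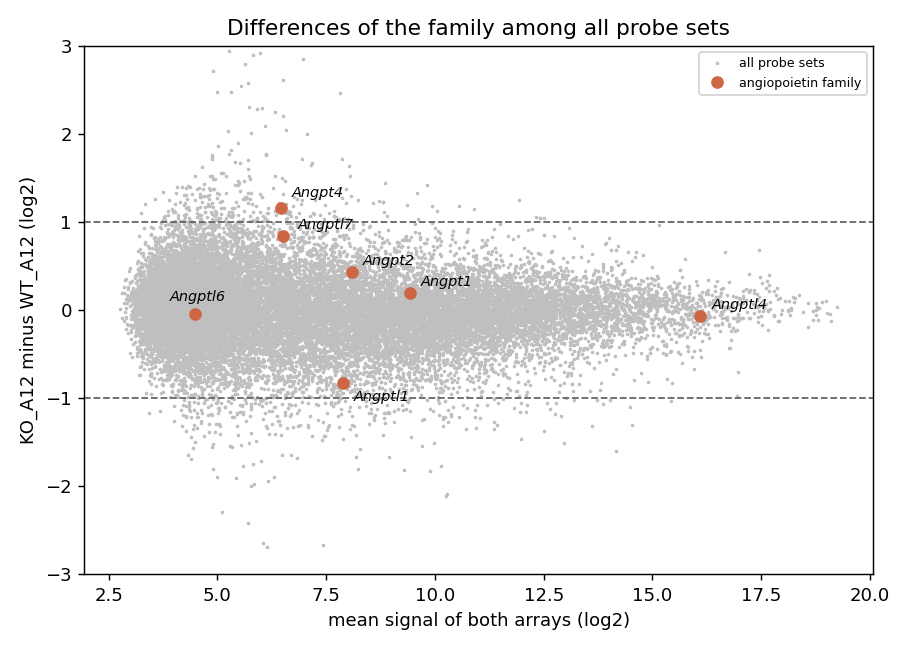
Difference between KO_A12 and WT_A12 (log2, y axis) against the mean log2 signal of both arrays (x axis) for all probe sets (grey) and the 7 family genes (filled circles); dashed lines mark 2-fold, and 41 probe sets with a difference beyond 3 in either direction are outside the plotted range. Angpt4 lies above the upper line at 1.16, Angptl7 at 0.84 and Angptl1 at -0.83 lie between the lines, and the grey cloud narrows toward Angptl4.

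Several family genes lie within the span of another gene in RefSeq, and the signals of these genes, chosen after their values were seen, are given beside them. Angpt2 lies within Mcph1, whose log2 signals were 8.71 and 8.72, a difference of 0.01 against 0.43 for Angpt2. Angptl1 lies within Ralgps2, with signals of 8.71 and 8.57 and a difference of -0.14 against -0.83. Angptl7 lies within Mtor, the gene of the growth-regulating kinase mTOR, which had signals of 11.08 and 10.71 and a difference of -0.37 against 0.84, in the opposite direction.

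No receptor or partner of the angiopoietins reached a 2-fold difference between the pools. Tek, the Tie2 receptor, had log2 signals of 10.56 in WT_A12 and 10.62 in KO_A12, a difference of 0.06, and Tie1, its co-receptor, had 9.50 and 9.65, a difference of 0.16. Ptprb, the endothelial phosphatase that dampens Tie2, had 12.65 and 13.24, a difference of 0.59. Of the downstream genes, the adaptor Dok2 had a difference of -0.38 and the transcription factor Foxo1, which Tie2 signalling restrains, of 0.14. Svep1, a matrix protein that binds Tie1, was at -0.45, and the integrin subunits Itga5 and Itgb1 at -0.45 and 0.11. Of these 8 genes 5 were higher and 3 lower, with a median of 0.09 and a mean of -0.027, and 0 were called in either direction.

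On the side of the angiopoietin-like proteins, 5 of 6 measured genes of lipase handling had a higher signal in the knockout pool (median 0.29, 0 called). Lpl, lipoprotein lipase, had log2 signals of 17.74 and 17.99, a difference of 0.25. Gpihbp1, which carries the lipase to the capillary surface, had 11.82 and 12.43, a difference of 0.61. Lmf1 and Sel1l, which the lipase needs to mature and leave the endoplasmic reticulum, were at 0.25 and 0.33, and Lipg, endothelial lipase, at 0.39 with signals of 4.87 and 5.26, both under the background medians. Gpihbp1 also belongs to the list of blood endothelium markers, of which 11 of 13 were higher, with a median of 0.34, and the part of the endothelium in the lipase list was not tested. Angptl8, a family gene outside the member list that acts in lipase control, had log2 signals of 7.09 and 6.91, a difference of -0.18.

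In the list of receptors of angiopoietin-like proteins 6 of 7 genes had lower signals, with a median of -0.46 and 0 called. The list includes Lilrb4a and Pilra (-0.31), for which binding of these proteins is not taken as established here. Pirb, a myeloid inhibitory receptor described as a receptor of Angptl2 in mouse, had log2 signals of 12.32 and 11.40, a difference of -0.92. The related Lilrb4a was at -0.55, and the integrin subunits Itgb3 and Itgav at -0.47 and -0.46. All 13 measured macrophage markers were also lower, with a median of -0.67, and their summed signal on the log2 scale was 17.61 in WT_A12 and 17.02 in KO_A12. In these pools fewer cells of a type and less RNA per cell cannot be told apart, and the part of the macrophage markers in the difference of Pirb was not tested.

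Of the other vascular growth factor genes, 7 of 9 measured ones had a higher signal in KO_A12 (median 0.22, 0 called, and 0.48 among those with a mean signal over 7). Vegfa and Vegfc, ligands of the blood and lymphatic endothelium, were at 0.56 and 0.58, the receptor Flt1 at 0.50, and Vegfb at -0.50. Targets of PPAR nuclear receptors, of glucocorticoids and of hypoxia, stimuli that are known to raise Angptl4, are given beside it. Of 18 PPAR target genes 15 were lower, with a median of -0.12 and a mean of -0.28. The 2 called lower were the lipid droplet gene Cidea at -1.42 and Pdk4, a kinase that restrains pyruvate oxidation, at -1.38. By real-time qPCR in epididymal fat the study did not reproduce these 2 changes. Ucp3 was at -0.59 and Cpt1a at -0.26. Of 12 glucocorticoid-responsive genes 9 were higher, with a median of 0.12 and a mean of 0.19, led by Fkbp5 at 0.84, with Dusp1 at 0.38, Lcn2 at 0.34 and Mt2 at 0.33. Of 15 hypoxia-responsive genes 9 were higher, with a median of 0.14 and a mean of 0.045, and Adm and Pdk1 were at 0.64 and 0.32 while Kdm3a was at -0.94.

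**Figure D3:**
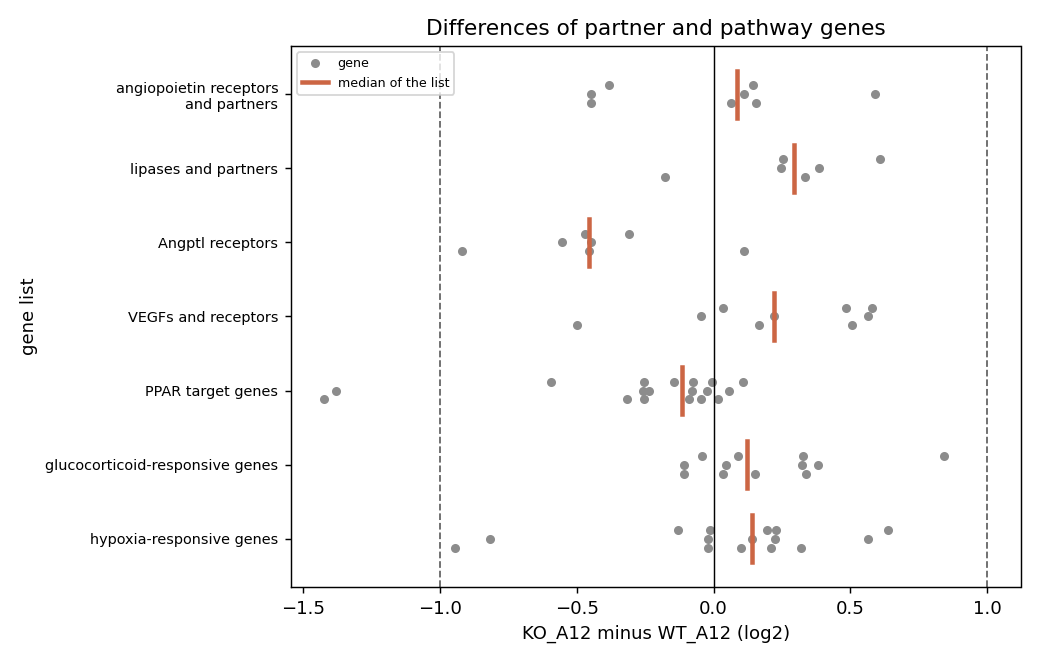
Difference between KO_A12 and WT_A12 (log2, x axis) of each measured gene (points) in 7 lists of partner and pathway genes (rows), with the list median as a vertical bar and 2-fold as dashed lines. The bar of the list labelled Angptl receptors lies at -0.46 and that of the lipases and partners at 0.29. The only points beyond 2-fold are Cidea and Pdk4.

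Markers of the cell types that make or receive these ligands, and of other cells of fat, are given beside the family. Of 13 blood endothelium markers 11 were higher and 0 called, with a median of 0.34 and a summed log2 signal of 16.28 in WT_A12 and 16.70 in KO_A12. Of 12 pericyte and smooth muscle markers 11 were higher and 0 called higher, while Cspg4 was called lower at -1.16, with a median of 0.38 and summed log2 signals of 15.67 and 16.06. Angpt1, made largely by mural cells, was at 0.19 and Angpt2, made by the endothelium, at 0.43. Of 7 lymphatic endothelium markers 5 were higher and 1 was called higher, with a median of 0.14, a mean of 0.39 and summed log2 signals of 12.92 and 13.56. Mesothelium markers were higher in 9 of 10 cases and 0 were called, with a median of 0.78, and summed log2 signals of 10.46 and 11.25. Only 5 of these 10 had a log2 signal over 7 on either array. Their median log2 signals, 6.20 in WT_A12 and 6.76 in KO_A12, were in the range of the background controls, so that the sizes of the dim ones are uncertain. All 10 measured fibroblast and adipose progenitor markers were lower, as Angptl1 was, and 3 were called, with a median of -0.51 and summed log2 signals of 18.82 and 18.51. The part of these markers in the differences of the family genes was not tested.

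Genes of other organs were higher in the KO_A12 pool as well. All 14 liver markers were higher and 10 were called, with a median of 2.72 (6.47 among those with a mean signal over 7) and summed log2 signals of 9.36 and 16.17, and all 7 seminal vesicle markers were called higher, with a median of 5.36 (7.98 among those with a mean signal over 7) and summed log2 signals of 7.25 and 13.92. Angptl6, the member made mainly in the liver, was too dim on both arrays for a difference to be read. The part of these genes in the differences of Angpt4 and Angptl7 was not tested.

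**Figure D4:**
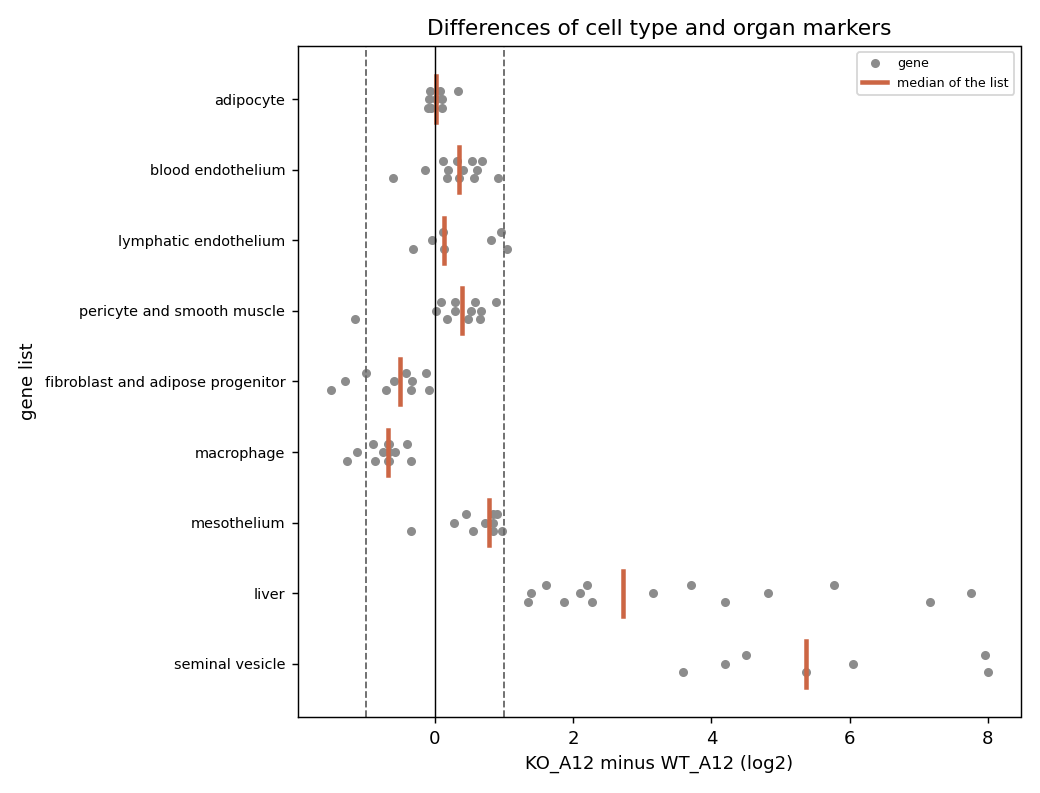
Difference between KO_A12 and WT_A12 (log2, x axis) of each measured marker (points) in 9 lists of cell types and organs (rows), with the list median as a vertical bar and 2-fold as dashed lines. The adipocyte median lies at 0.02, the macrophage median at -0.67, and all liver and seminal vesicle markers lie to the right of the upper 2-fold line.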

How the data were processed

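Epididymal fat RNA of 3 mice was pooled per genotype, labelled from 100 ng of total RNA and measured on 1 Clariom S Mouse Array each. The authors normalized the raw data by a robust multi-array average with signal space transformation (SST-RMA) and deposited the signals on the log2 scale. RMA is the tool in the processing notes of the submitters, and the genome build is not given in the sources used here. Scaling between arrays by the authors cannot be undone from these values. For arrays, their number limits the precision.

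Of 28846 rows, 6640 controls were left out. The platform annotation gave 1 symbol to 19572 probe sets, all of which matched RefSeq (GRCm38.p6) by Entrez ID. A gene with several probe sets was to enter a list by the one of highest mean signal. All members, the genes of the receptor and lipase lists, Iah1 and up to 4 genes per other pathway list, by largest absolute difference among those over a log2 signal of 7 on either array, were named. Adipoq and the genes overlapping members were named after their values were seen. Members and lists were chosen with earlier results of these data known. Calls and scalings were tested on simulated arrays. The planted changes were larger than that of Angpt4 and only in probe sets of brighter signal, so that calls near the cutoffs and the background were not covered. Alternatives were 3 scalings (median centring, quantile normalization, lowess with span 0.3), other cutoffs and other list summaries. Python 3.11.15, numpy 2.4.6, pandas 2.3.3, statsmodels 0.14.6 and matplotlib 3.10.9 were used.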

Additional observations from a re-analysis of the deposited data

How the results depend on the processing

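No paired analysis was possible because 1 array per genotype leaves nothing to pair. Log2 values that moved by less than 0.1 and counts that changed by at most 1.5 times are called kept. Under the 3 scalings all 21 member differences were kept, and Angpt4 was the 1 member called higher. The array medians were already 6.50 for WT_A12 and 6.51 for KO_A12, so that median centring could hardly move a value. The family was chosen by the call of Angpt4, and its repeat under these scalings adds no support to it. With a signal over 7 required on both arrays, 48 probe sets and 0 members were called higher, with a signal over 8 on the higher array 82 and 0, and with a signal over 6 the number of probe sets was 194. At 3-fold, 58 probe sets were higher and 17 lower, with 0 members higher. At 1.5-fold, 487 were higher and 824 lower, with 1 member, Angptl1, lower. Without a signal cutoff the counts were 325 and 299. These cutoffs admit more or fewer probe sets by construction. Of 42 pathway list values 39 were kept, and of 54 marker list values 47. Since 0 list genes had more than 1 probe set, averaging probe sets could not move 7 and 9 of these values. Among genes with a mean signal over 7, the vascular growth factor median was 0.48. Summarized by the mean, the angiopoietin receptor list was at -0.027 and the PPAR target list at -0.28. The 7 marker values that moved were those of liver (6.47 over a mean signal of 7, 3.53 by the mean), seminal vesicle (7.98 and 5.67), and by the mean lymphatic endothelium (0.39), fibroblasts (-0.64) and mesothelium (0.61).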
